A study of Homo sapiens with 12 samples.

Results

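The genes of oxidative phosphorylation were followed in HK-2 cells, an immortalised line derived from human renal proximal tubule epithelium, after exposure to a low dose of a compound labelled Aa. The genes were chosen by name. They were those with symbols beginning NDUF, UQCR, COX4 to COX8 or ATP5, together with the SDH genes of complex II and CYC1, measured by probe sets that the array annotation assigns to a single gene and that averaged at least 4 on the log2 scale over all 12 arrays. On the array 174 probe sets for 91 such genes were found, and 132 probe sets for 82 genes passed the filter, out of 19623 probe sets and 10791 genes in the whole table. Of the 82 genes, 81 encode proteins and 1, ATP5MC2P1, is a pseudogene. The groups were Aa for 24 h, control for 24 h, Aa for 48 h and control for 48 h, with 3 arrays each. Controls received the vehicle, and all cells grew in the same defined medium with epidermal growth factor, hydrocortisone, insulin, transferrin and selenite. What Aa stands for, the numeric dose and the kind of vehicle are not given in the sources read. The series was part of a search for expression signatures of kidney toxicity, and the comparisons ask which genes Aa changed at each time. Replicates are described as biological, but nothing says whether they came from separate cultures, so p-values measure only the spread between these arrays, which may be technical.

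Oxidative phosphorylation is the last stage of aerobic respiration in the inner mitochondrial membrane. Complex I (NADH dehydrogenase) and complex II (succinate dehydrogenase) pass electrons to ubiquinone, complex III passes them to cytochrome c and complex IV to oxygen, while complex V uses the resulting proton gradient to make ATP. Most subunits are encoded in the nucleus, some in mitochondrial DNA, and each complex needs assembly factors that are not part of the finished enzyme. Proximal tubule cells reabsorb most of the filtered solutes and in the kidney depend strongly on this pathway.

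Some genes of the pathway were not measured, or only weakly. In 9 genes all probe sets stayed below the filter, among them COX7A1 (2.13), the heart and skeletal muscle isoform of a complex IV subunit, and the sperm-enriched COX6B2 (2.43), COX7B2 (2.36) and COX8C (2.56). The others were ATP5MF (2.91), a complex V subunit whose bright probe set is assigned to more than 1 gene, the pseudogene COX6A1P1 and the noncoding genes NDUFB2-AS1, NDUFV1-DT and NDUFV2-AS1. Probe sets just inside the filter belonged to NDUFS1 (4.16), NDUFC1 (4.19) and UQCRB (4.27), and those just outside to NDUFA7 (3.97), ATP5F1C (3.69) and NDUFB1 (3.65), all of them genes with a brighter probe set. SDHB was not analysed here. NDUFA4, now counted with complex IV, is named COXFA4 in the current annotation and so fell outside the names used; it differed by 0.02 at 24 h and at 48 h.

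The 12 arrays were alike in overall scale, with medians over all probe sets between 2.93 and 3.01. The probe sets for 28S ribosomal RNA averaged 7.03 to 7.44 on Aa arrays and 6.30 to 6.45 on control arrays at 24 h, and 7.30 to 7.80 on Aa arrays and 6.60 to 6.91 on control arrays at 48 h. The actin control probe sets differed between their 3′ and 5′ ends by 0.68 to 1.15 on Aa arrays and 0.63 to 0.99 on control arrays. Of 12 proximal tubule markers only CDH6, PAX8 and SLC3A1 passed the filter; LRP2, CUBN, SLC34A1 and AQP1, which define the mature tubule, read 2.08 to 3.09. The mean over these 12 markers was 4.43 to 4.59 on Aa arrays and 4.61 to 4.70 on control arrays at 24 h, and 4.28 to 4.48 on Aa arrays and 4.68 to 4.74 on control arrays at 48 h. The 3 detected markers fell at 48 h, CDH6 by 1.48, SLC3A1 by 1.87 and PAX8 by 0.45. All 5 epithelial markers passed the filter, as did 3 of 7 fibroblast markers (COL1A1, DCN and LUM), 0 of 4 endothelial markers and 0 of 4 leukocyte markers. The part of the ribosomal RNA signal and of the tubule markers in the differences given here was not tested. In such bulk samples, fewer cells of a type and less RNA per cell cannot be told apart.

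In control cells these genes were among the brighter ones on the array. The median of their control means was 12.22, against 8.69 over all genes tested, and 43 of 82 averaged at least 12. Control means ran from 4.61 for COX4I2, the complex IV isoform known from lung, to 14.3 for the brightest member. Levels of different probe sets are only a rough guide to abundance, since probes differ in brightness. Only 4 members had a control mean below 8, namely COX4I2, the muscle isoform gene COX6A2, the pseudogene ATP5MC2P1 and NDUFAF1.

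Most members changed little with Aa, and nearly all large changes were falls in assembly factor genes of complex I. After 24 h with Aa, 10 of 82 members fell and 0 rose (limma, adjusted p under 0.05 by Benjamini-Hochberg across the whole table), where 12.8% of all genes tested fell and 10.3% rose. The members' median log2 change was -0.09, against -0.02 over all genes, and their median absolute change was 0.11, against 0.24. After 48 h, 16 members fell and 7 rose, where 20.1% of all genes fell and 17.8% rose. Their median change was -0.06 against 0.00, and the median absolute change 0.17 against 0.32. A change of at least 2-fold was called in 2 members at 24 h and in 4 at 48 h.

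As shares, 12.2% of members fell at 24 h and 19.5% at 48 h, near the shares over all genes, and 0% and 8.54% rose, below them. Those differences in share were not tested. Of the 82 members, 8 fell at both times, 2 fell only at 24 h by this threshold, 8 fell and 7 rose only at 48 h, and 57 passed at neither. The replicate number was also fitted as a block, taking out differences between the numbered pairs. The members then gave 19 falls and 1 rise at 24 h, and 22 falls and 13 rises at 48 h. Over all 10791 genes that fit gave 2465 falls and 1992 rises at 24 h, and 3032 and 2885 at 48 h. The members' share of falls was thus near that over all genes at both times, and their share of rises was below it. The counts rest on few arrays. Without replicate 1 in all groups 2 members were called at 24 h and 7 at 48 h, without replicate 2 the counts were 7 and 15, and without replicate 3 they were 4 and 7.

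**Figure D1:**
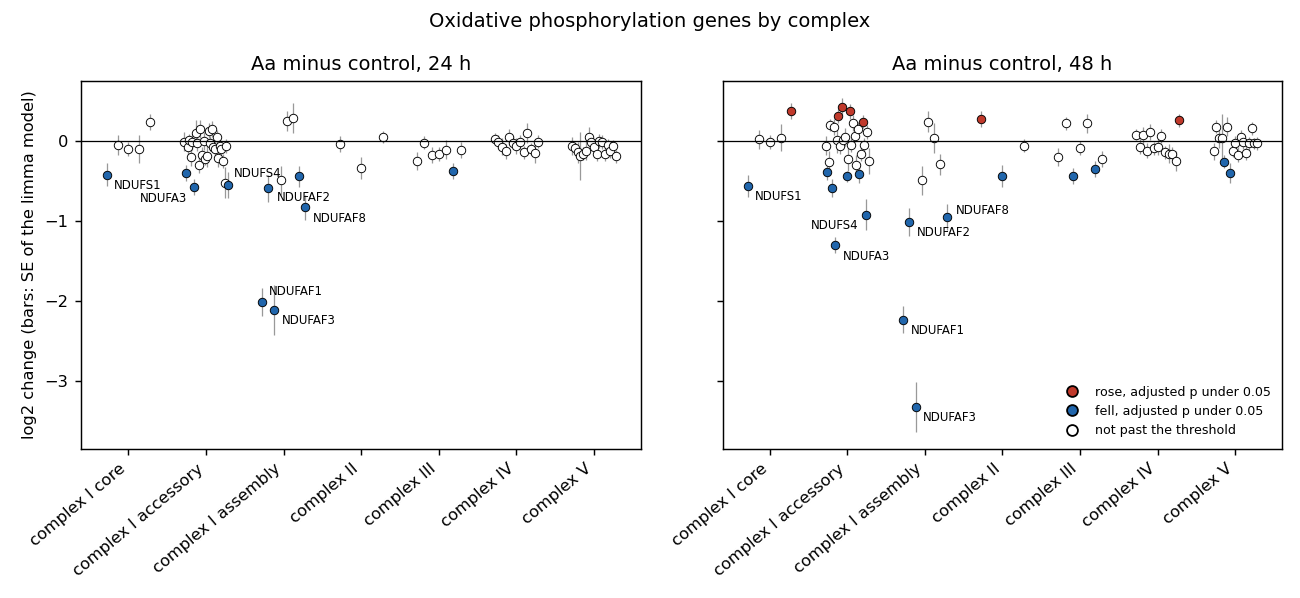
Log2 change (Aa minus control) of 81 protein-coding oxidative phosphorylation genes, grouped by complex, at 24 h (left) and 48 h (right); each point is 1 gene, bars are the standard error of the limma model, red points rose, blue points fell and open points did not pass the threshold. Most points lie near 0, and the points below -2 are the complex I assembly factors NDUFAF1 and NDUFAF3.

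The 8 NDUFAF genes encode assembly factors of complex I. Of these 5 fell at 24 h (62.5%) and 4 at 48 h (50%), against 12.8% and 20.1% of all genes tested. The differences in share were not tested. The median change of the NDUFAF genes was -0.54 at 24 h and -0.72 at 48 h, against -0.08 and -0.01 over the 33 complex I subunit genes. With the replicate block 6 fell and 1 rose at each time.

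NDUFAF3 encodes a factor that helps to build the ubiquinone-binding module of complex I. It read 7.80, 7.71 and 8.61 on the Aa arrays at 24 h, against 10.05, 10.21 and 10.18 on the control arrays. At 48 h it read 6.18, 7.39 and 6.36 on the Aa arrays, against 9.73, 10.01 and 10.15 on the control arrays. Every Aa array lay more than 1 log2 unit below every control array, and replicate 2 stood above the other Aa arrays at 48 h. NDUFAF3 thus fell by 2.11 (SE 0.31, 4.31-fold, adjusted p = 0.00107 in limma) at 24 h and by 3.32 (SE 0.31, 10.0-fold, adjusted p = 5.18e-05) at 48 h. In the Aa cells it also fell between the times, by 1.40 (SE 0.31, adjusted p = 0.0282).

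NDUFAF1 encodes a subunit of the assembly complex that builds part of the membrane arm. It read 5.18, 5.61 and 5.49 on the Aa arrays at 24 h, against 7.35, 7.59 and 7.38 on the control arrays. At 48 h it read 5.25, 5.35 and 4.71 on the Aa arrays, against 7.35, 7.35 and 7.30 on the control arrays. The groups were far apart at both times, and the control arrays stayed close together. NDUFAF1 fell by 2.01 (SE 0.17, 4.04-fold, adjusted p = 5.42e-05) at 24 h and fell by 2.23 (SE 0.17, 4.68-fold, adjusted p = 1.72e-05) at 48 h. The calls of NDUFAF1 and NDUFAF3 held at both times under each of 13 alternative settings. Each of these genes has a single probe set past the filter, with a plain name. The settings that change the choice of probe set therefore left their log2 changes as they were.

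NDUFAF8, whose product stabilises NDUFAF5, read 9.90, 9.90 and 10.31 on the Aa arrays at 24 h, against 10.81, 10.70 and 11.09 on the control arrays. At 48 h it read 9.36, 9.81 and 9.81 on the Aa arrays, against 10.67, 10.47 and 10.69 on the control arrays. The groups did not overlap at either time, and NDUFAF8 fell by 0.83 (SE 0.16, adjusted p = 0.00497) and by 0.95 (SE 0.16, adjusted p = 0.00141). NDUFAF2 encodes a late factor that acts as the NADH-oxidising module is added. It read 8.97, 9.39 and 9.37 on the Aa arrays at 24 h, against 9.72, 9.87 and 9.92 on the control arrays. At 48 h it read 8.24, 8.69 and 8.87 on the Aa arrays, against 9.52, 9.59 and 9.73 on the control arrays. The lowest control array lay above the highest Aa array at each time, and NDUFAF2 fell by 0.59 (SE 0.17, adjusted p = 0.0264) and by 1.01 (SE 0.17, adjusted p = 0.00116). Without replicate 1 the 24 h calls of NDUFAF8 (adjusted p = 0.073) and NDUFAF2 (adjusted p = 0.0642) were lost, and that of NDUFAF2 was also lost without replicate 2 (0.108) and without replicate 3 (0.119).

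NDUFAF7, a mitochondrial methyltransferase, fell by 0.44 at 24 h (SE 0.13, adjusted p = 0.0362) and differed by -0.29 at 48 h, which passed with the block only (adjusted p = 0.0104). Its 24 h call was lost without replicate 1 (adjusted p = 0.0815), replicate 2 (0.12) or replicate 3 (0.204). The call was also lost with the mean of its probe sets, which gave -0.25 (adjusted p = 0.0899). Its dimmer probe sets differed by -0.23 and -0.09 at 24 h and did not pass. The other 3 were outside the rule for named genes and are given so that the group is complete. NDUFAF4, the partner of NDUFAF3, differed by -0.49 at both times, with adjusted p = 0.0779 at 24 h and 0.0556 at 48 h (0.00603 and 0.00392 with the block). NDUFAF5, which hydroxylates a core subunit, differed by 0.25 and 0.24 and passed with the block only (adjusted p = 0.0379 and 0.0312), and NDUFAF6 differed by 0.29 and 0.04. The falls were therefore not shared by the whole family.

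**Figure D2:**
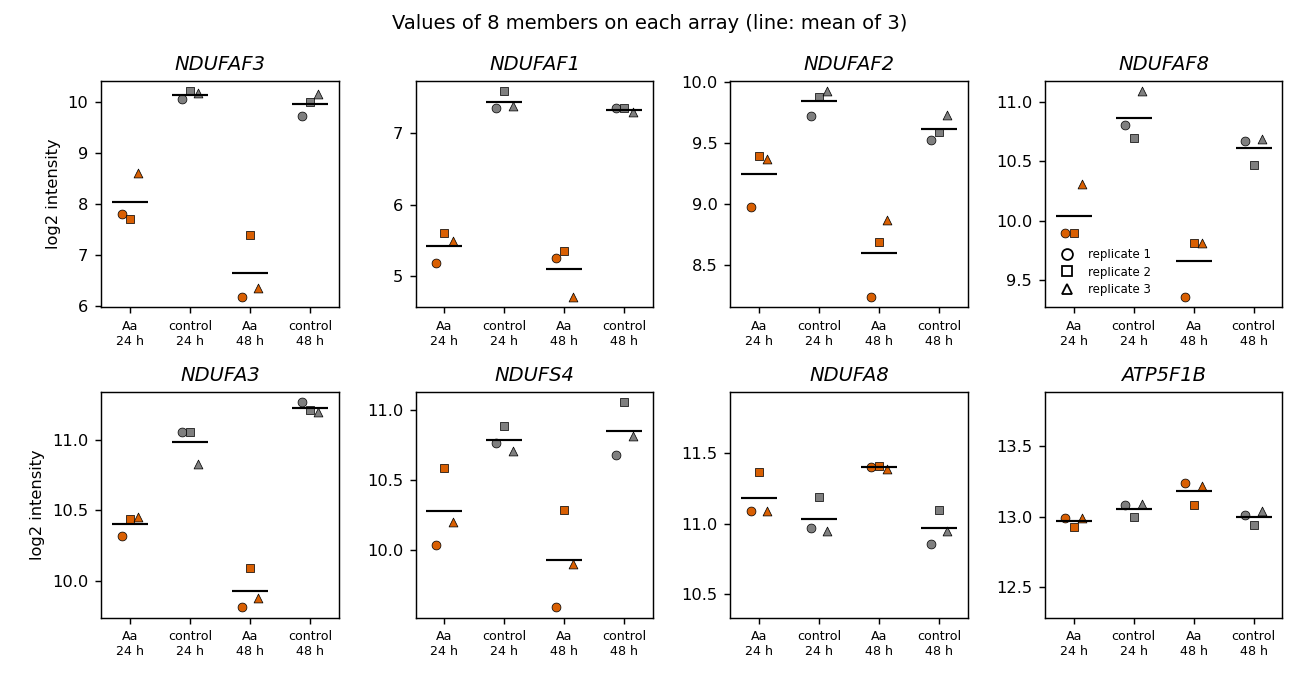
Log2 intensity of 8 oxidative phosphorylation genes on each of the 12 arrays, with Aa (orange) left of control (grey) at each time, a marker shape for each replicate number and a line at the mean of 3; the vertical scale differs between panels. NDUFAF3, NDUFAF1, NDUFAF2, NDUFAF8 and NDUFA3 lie lower with Aa at both times, NDUFS4 at 48 h by the test, NDUFA8 lies higher at 48 h, and ATP5F1B is shown as a member that passed at neither time without the replicate block; with it, ATP5F1B passed at 48 h.

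The promoters of NDUFAF3 and NDUFAF1, which fell most, and of NDUFA3, the subunit gene that fell most, are shown because many genes of this pathway carry sites for the transcription factors NRF1 and GABP near their start. Each runs from 250 bases before to 50 bases after a RefSeq start (GRCh38.p14), 5′ to 3′ on the gene's strand, and capitals mark matches to the NRF1 letters GCGCANGCG on either strand. NDUFAF3 lies at chr3:49020202-49020501 on the plus strand (the window nearest to the annotated gene start, of 4), NDUFAF1 at chr15:41402447-41402746 on the minus strand and NDUFA3 at chr19:54102605-54102904 on the plus strand.
NDUFAF3: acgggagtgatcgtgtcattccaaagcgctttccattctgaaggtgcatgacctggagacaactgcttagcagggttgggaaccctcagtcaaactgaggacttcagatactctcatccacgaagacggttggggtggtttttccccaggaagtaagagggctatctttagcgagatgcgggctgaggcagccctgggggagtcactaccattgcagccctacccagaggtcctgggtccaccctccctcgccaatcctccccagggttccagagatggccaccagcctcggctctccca
NDUFAF1: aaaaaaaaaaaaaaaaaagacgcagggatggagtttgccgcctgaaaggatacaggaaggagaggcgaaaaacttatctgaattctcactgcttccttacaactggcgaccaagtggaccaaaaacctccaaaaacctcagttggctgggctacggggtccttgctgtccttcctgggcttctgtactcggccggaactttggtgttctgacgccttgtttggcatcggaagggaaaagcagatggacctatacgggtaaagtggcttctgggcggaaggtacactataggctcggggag
NDUFA3: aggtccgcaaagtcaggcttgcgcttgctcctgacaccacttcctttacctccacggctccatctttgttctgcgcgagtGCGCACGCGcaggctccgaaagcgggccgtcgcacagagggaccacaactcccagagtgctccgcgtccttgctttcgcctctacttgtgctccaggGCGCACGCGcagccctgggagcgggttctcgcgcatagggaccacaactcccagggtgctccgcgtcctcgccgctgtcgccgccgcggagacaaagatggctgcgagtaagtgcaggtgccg

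NDUFA3 held 2 matches to the NRF1 letters, while neither NDUFAF window held one, and none of the 3 windows held the GABP letters CCGGAAGT on either strand. Of the 82 members, 70 had a promoter in the RefSeq table, 11 of them with several starts. A match to the NRF1 letters was present in 23 of these 70 genes (32.9%), against 9.02% of all 27305 genes with a promoter, and a match to the GABP letters in 11 (15.7%), against 4.95%. Among the 15 matched members that fell at 48 h, 2 held the NRF1 letters and 3 the GABP letters. Among 7 NDUFAF genes the counts were 1, NDUFAF5, and 0. These are counts of letters, not of bound sites.

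The remaining complex I genes, 33 subunits, moved in both directions. Core subunits carry the redox centres. Among the 5 core subunits tested here, NDUFS1 fell by 0.42 (SE 0.14, adjusted p = 0.0497) at 24 h and by 0.56 (SE 0.14, adjusted p = 0.00963) at 48 h. NDUFS1 holds iron-sulphur clusters of the electron entry arm. Its calls were lost without replicate 1 (adjusted p = 0.237 at 24 h and 0.0603 at 48 h) and without replicate 3 (0.262 and 0.128). The direction also depended on the probe set: averaged over its 5 probe sets NDUFS1 read 0.24 and 0.05. The dimmest of the 5 entered this mean only through the Aa arrays, since its control means were 3.61 and 3.88. It differed by 1.01 and 0.65. Those between the brightest and the dimmest differed by -0.35, 0.27 and 0.70 at 24 h and by -0.49, -0.02 and 0.65 at 48 h. NDUFV2, another iron-sulphur subunit, rose by 0.37 (SE 0.10, adjusted p = 0.0161) at 48 h, a call lost without replicate 1 (0.101), replicate 2 (0.0788) or replicate 3 (0.078). The other core subunits, NDUFS3, NDUFS7 and NDUFV1, differed by -0.10 to 0.04 at either time.

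Of 28 accessory subunit genes, 3 fell and 0 rose at 24 h (8 and 0 with the block). At 48 h 6 fell and 4 rose (8 and 6 with the block). As shares 10.7% and 21.4% fell, near the 12.8% and 20.1% over all genes. The rises were 0% and 14.3%, against 10.3% and 17.8%, and the differences were not tested. NDUFA3, a small subunit of the membrane arm, changed most. It read 10.32, 10.44 and 10.45 on the Aa arrays at 24 h, against 11.06, 11.06 and 10.83 on the control arrays. At 48 h it read 9.81, 10.09 and 9.88 on the Aa arrays, against 11.27, 11.21 and 11.20 on the control arrays. The distance between the groups was wider at 48 h. NDUFA3 fell by 0.58 (SE 0.10, adjusted p = 0.00291) and by 1.30 (SE 0.10, 2.47-fold, adjusted p = 2.22e-05), and its 24 h call was lost without replicate 1 (adjusted p = 0.0847).

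NDUFS4 encodes an accessory subunit of the electron entry arm that is mutated in Leigh syndrome. It read 10.04, 10.59 and 10.20 on the Aa arrays at 24 h, against 10.77, 10.89 and 10.71 on the control arrays. At 48 h it read 9.59, 10.29 and 9.90 on the Aa arrays, against 10.68, 11.06 and 10.82 on the control arrays. The groups did not overlap at either time, with replicate 2 the highest Aa array at both. NDUFS4 differed by -0.52 (SE 0.19, adjusted p = 0.0712; 0.00387 with the block) at 24 h and fell by 0.92 (SE 0.19, adjusted p = 0.00349) at 48 h. The 48 h call was lost without replicate 3 (adjusted p = 0.0636).

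Smaller falls at 48 h were those of NDUFA13 (0.59, SE 0.11, adjusted p = 0.00211), known also as the cell death factor GRIM-19, NDUFB1 (0.44, SE 0.07, adjusted p = 0.00127), NDUFB7 and NDUFA10. NDUFB7 was outside the rule for named genes; its change was -0.41 (SE 0.12, adjusted p = 0.0171). NDUFA10, whose fold resembles nucleoside kinases, fell by 0.40 at 24 h (adjusted p = 0.0174) and by 0.39 at 48 h (adjusted p = 0.0129). NDUFV3, a subunit of the flavoprotein module, fell by 0.55 (SE 0.16, adjusted p = 0.0302) at 24 h and differed by -0.25 at 48 h. NDUFB1 kept its 48 h call under each of 12 alternative settings. Only 1 of its probe sets passed the filter, so these settings did not test the choice among probe sets. The call of NDUFA13 was lost without replicate 1 (adjusted p = 0.0632), and those of NDUFA10 without replicate 1 (0.201 at 24 h and 0.166 at 48 h) or replicate 3 (0.0674 and 0.0556), at 24 h also without replicate 2 (0.0707). The call of NDUFV3 was lost without replicate 1 (0.205), replicate 2 (0.0808) or replicate 3 (0.0772). Its change at 24 h was -0.36 (0.0999) with the mean of its probe sets and -0.17 (0.488) on the probe set with a plain name.

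The accessory genes that rose at 48 h were NDUFA8, NDUFB11, NDUFA6 and NDUFB9. NDUFA8, a subunit on the intermembrane space side, read 11.40, 11.41 and 11.39 on the Aa arrays at 48 h, against 10.86, 11.10 and 10.95 on the control arrays. It rose by 0.43 (SE 0.11, adjusted p = 0.0114), NDUFB11 by 0.37 (SE 0.09, adjusted p = 0.0108), NDUFA6 by 0.31 (SE 0.09, adjusted p = 0.0224) and NDUFB9 by 0.24 (SE 0.08, adjusted p = 0.0268). NDUFA6 and NDUFB9 belong to the LYR motif proteins, which bind the acyl carrier subunit NDUFAB1. The rises were small, and none of the 7 members that rose at 48 h was called without replicate 1 or without replicate 3, while 2 members were called up without replicate 2.

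Complex II was represented by 3 genes. SDHA, the flavoprotein that oxidises succinate, read 11.33, 11.36 and 11.49 on the Aa arrays at 48 h, against 11.02, 11.16 and 11.19 on the control arrays, and rose by 0.27 (SE 0.10, adjusted p = 0.0466). Without replicate 1, 2 or 3 its adjusted p was 0.247, 0.0868 and 0.171. Its change at 24 h was -0.04. SDHC, a membrane anchor, read 10.46, 10.79 and 10.56 on the Aa arrays at 48 h, against 10.96, 11.02 and 11.14 on the control arrays. It fell by 0.44 (SE 0.14, adjusted p = 0.0266), a call lost without replicate 1 (adjusted p = 0.129) or replicate 3 (0.232). The change at 48 h was -0.19 (0.325) with the mean of its probe sets and 0.06 (0.905) on the brightest of those with plain names, so the direction depended on the probe set. At 24 h SDHC differed by -0.34, which passed with the block only (adjusted p = 0.0213). SDHD, the other anchor, differed by 0.05 and -0.06.

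In complex III 1 of 7 genes fell at 24 h and 2 at 48 h, with 0 rises (3 falls and 2 rises with the block at 48 h). The falls were 14.3% and 28.6%, against 12.8% and 20.1% of all genes, a difference not tested in so few genes. UQCRC2, a core protein without redox centre, read 11.33, 11.48 and 11.22 on the Aa arrays at 24 h, against 11.67, 11.82 and 11.70 on the control arrays. It fell by 0.38 (SE 0.10, adjusted p = 0.0179) at 24 h and by 0.35 (SE 0.10, adjusted p = 0.0169) at 48 h, on both of its probe sets, with calls lost without replicate 1 (0.153 and 0.116) or replicate 3 (0.156 and 0.108). UQCR11, a small subunit, fell by 0.44 (SE 0.10, adjusted p = 0.00499) at 48 h, a call lost without replicate 1 (0.068) or replicate 3 (0.0753). Its change was -0.03 there, and 0.54 at 24 h, when probe sets with names for shared sequence were dropped. CYC1, the cytochrome c1 gene, differed by -0.25 (adjusted p = 0.12) and -0.20 (adjusted p = 0.158).

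Complex IV and complex V had the narrowest ranges of change at 24 h. None of 13 complex IV genes passed at 24 h, where their changes ran from -0.15 to 0.10. At 48 h only COX8A did, with changes from -0.25 to 0.26 over the group. As shares 7.69% rose and 0% fell at 48 h, against 17.8% and 20.1% of all genes, which was not tested. COX8A, the smallest subunit, read 12.95, 12.97 and 12.98 on the Aa arrays at 48 h, against 12.59, 12.75 and 12.77 on the control arrays, and rose by 0.26 (SE 0.08, adjusted p = 0.0284; 0.224, 0.0861 and 0.118 without replicate 1, 2 or 3). COX4I1, the common isoform of the regulatory subunit, differed by 0.03 and 0.08, COX6A1 by 0.05 and 0.11, COX7A2 by -0.14 at both times and COX5B by -0.13 and -0.12. COX7C differed by -0.15 and -0.25 and passed with the block only, at 48 h (adjusted p = 0.012). COX7A2L, a factor of supercomplexes and not a subunit of complex IV alone, differed by 0.10 and -0.16. The isoform gene COX4I2 differed by -0.01 and -0.07 near the lower end of the scale.

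Of 17 complex V genes 0 passed at 24 h (2 falls with the block) and 2 fell at 48 h. The falls were 0% and 11.8%, against 12.8% and 20.1% of all genes, which was not tested. Changes ran from -0.19 to 0.05 at 24 h and from -0.40 to 0.18 at 48 h. ATP5MC1, ATP5MC2 and ATP5MC3 encode the same mature c subunit of the rotor with different targeting peptides. ATP5MC1 read 9.53, 9.81 and 10.00 on the Aa arrays at 48 h, against 10.03, 10.16 and 10.35 on the control arrays. It fell by 0.40 (SE 0.13, adjusted p = 0.0381), a call lost without replicate 1 (0.132), replicate 2 (0.131) or replicate 3 (0.104). ATP5MC2 differed by -0.01 at 24 h and -0.12 at 48 h, and ATP5MC3 by -0.08 and -0.02. ATP5F1E, the epsilon subunit of the catalytic head, fell by 0.26 (SE 0.08, adjusted p = 0.0229) at 48 h, a call lost without replicate 1 (0.13), replicate 2 (0.0767) or replicate 3 (0.184). With the mean of its probe sets its change at 48 h was -0.08 (adjusted p = 0.446). ATP5PO, the stator subunit that confers oligomycin sensitivity, differed by -0.19 at 24 h and -0.03 at 48 h, and passed with the block only at 24 h (adjusted p = 0.046). ATP5F1B, the catalytic beta subunit, chosen as an example after its values were seen, differed by -0.09 at 24 h and 0.18 at 48 h, and passed with the block only at 48 h (adjusted p = 0.0245). The pseudogene ATP5MC2P1 differed by -0.02 and -0.12.

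Time alone changed no member at the threshold in control cells (48 h against 24 h, 0 of 82), where 0.232% of all genes rose and 0.269% fell. In Aa cells NDUFB9 rose between the times by 0.30 (SE 0.08, adjusted p = 0.0466), and ATP5MC1 (0.55, SE 0.13, adjusted p = 0.0428), NDUFA3 (0.48, SE 0.10, adjusted p = 0.026) and NDUFAF3 fell, where 3.07% of all genes rose and 2.44% fell. The test of whether the Aa effect differed between 48 h and 24 h called 0 members, against 0.741% of all genes up and 0.0834% down. NDUFA3 came nearest, with a difference of -0.72 (adjusted p = 0.052; 0.0119 with the block). NDUFA6 (0.34) and NDUFB9 (0.35) were called with the block only, with adjusted p = 0.04 and 0.0359. The block gave 3 rises and 1 fall in control cells and 5 rises and 7 falls in Aa cells. Over all 10791 genes it gave 938 rises and 981 falls in control cells, and 1228 and 1075 in Aa cells. For the change of the Aa effect it gave 678 rises and 505 falls over all genes. These were larger shares than among the members. In Aa cells 0 members were called without replicate 1, 1 without replicate 2 and 0 without replicate 3. That a member passed at 48 h and not at 24 h was therefore in general not shown to be a difference between the times.

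The choice of probe set mattered for these genes. Tested as single probe sets, 13 of 132 rose and 12 fell at 24 h, where 10.9% of all single probe sets rose and 11.4% fell, and 13 rose and 19 fell at 48 h, where 16% rose and 17.9% fell. In 30 members several probe sets passed the filter. The following split of their probe sets was chosen after the values were seen. The brightest probe sets of these 30 members gave 0 rises and 3 falls at 24 h, while their 50 dimmer probe sets gave 13 rises (26%) and 3 falls. Among all genes with several probe sets, 12.1% of the dimmer ones rose and 10.3% fell. At 48 h the dimmer sets of the members gave 7 rises (14%) and 3 falls (6%), against 14.8% and 16.4% of those of all genes, so the share of rises was near the background there. The filter bears on these counts: 2 of the dimmer sets, in UQCRB and NDUFS1, had control means below 4 and passed only through the Aa arrays. Without them 11 of 48 rose at 24 h (22.9%) and 6 of 48 at 48 h (12.5%). The rises at 24 h lay in 12 genes, 12 of them in the 28 dimmer sets with plain names (median change 0.34) and 1 in the 22 whose names mark shared sequence (median -0.09). The probe sets that rose had mean levels of 4.16 to 11.6.

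UQCRB, the ubiquinone-binding subunit gene of complex III, had the widest spread. Its brightest probe set read 13.80, 13.83 and 13.76 on the Aa arrays at 24 h, against 13.90, 14.03 and 13.93 on the control arrays. Its dimmest read 5.37, 4.97 and 5.35 on the Aa arrays, against 2.63, 3.24 and 2.64 on the control arrays. The first group of values lay slightly lower with Aa and the second far higher. The dimmest probe set differed by 2.40 at 24 h and 2.96 at 48 h, given as a description, since it passed the filter only through the Aa arrays. A further one, with a mean level of 8.55, rose by 1.01 (SE 0.18, adjusted p = 0.00305) and 1.02. In NDUFAF4 the brighter probe set differed by -0.49 at 24 h and the dimmer one rose by 1.27 (SE 0.17, adjusted p = 0.000562), with 8.03, 7.75 and 8.03 on the Aa arrays against 6.49, 6.84 and 6.67 on the control arrays. COX7B (1.26) and ATP5MC3 (1.19) had dimmer probe sets that rose at 24 h while their brightest ones differed by -0.10 and -0.08. SDHC was the only member with probe sets called in both directions at 24 h: 1 fell by 0.46 (adjusted p = 0.0201) and another rose by 0.87 (adjusted p = 0.0206). UQCRB, NDUFAF4 and COX7B were named after their values were seen. NDUFAF3, NDUFAF1, NDUFAF2, NDUFAF8, NDUFA3 and NDUFS4 had a single probe set each.

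**Figure D3:**
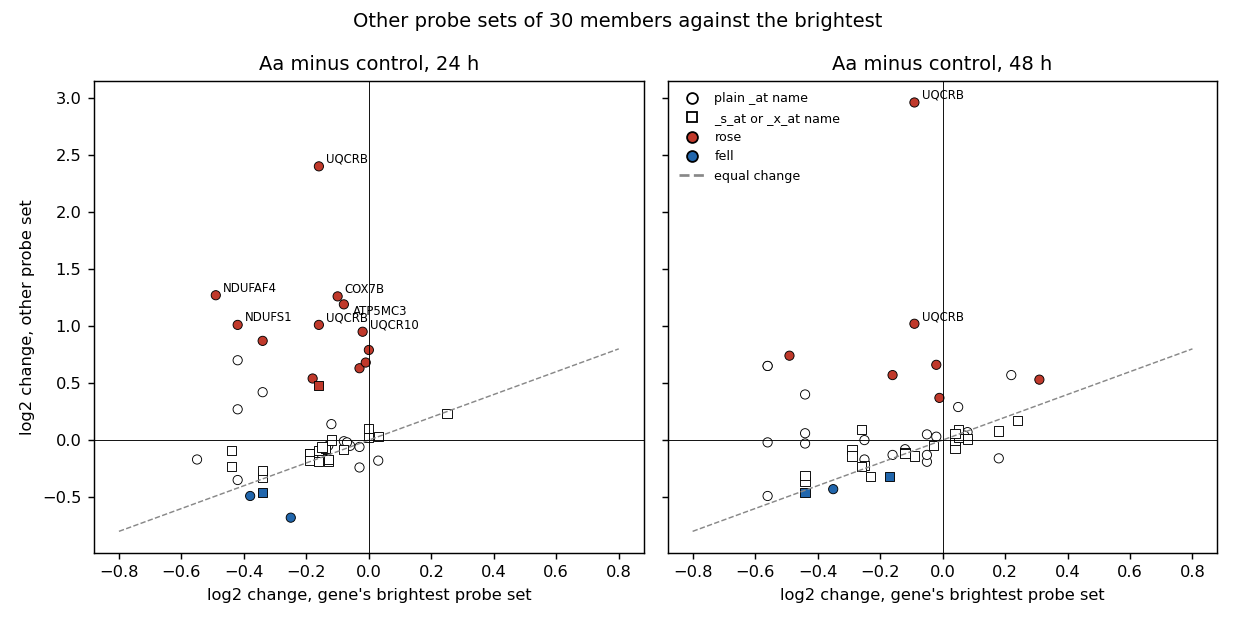
Log2 change (Aa minus control) of each dimmer probe set of 30 members (vertical axis) against that of the same gene's brightest probe set (horizontal axis), at 24 h (left) and 48 h (right); red rose, blue fell, open did not pass, squares mark names for shared sequence and the dashed line equal change. At 24 h 13 of the 50 dimmer probe sets rose, while the brightest probe sets of the 30 members differed by -0.55 to 0.25. The highest point at 24 h, UQCRB at 2.40, and 1 of NDUFS1 passed the filter only through the Aa arrays. Without these 2, 11 of 48 rose, up to 1.27 for NDUFAF4.

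The size of change also varied with level, in classes set after the values were seen. Of 43 members with a control mean of at least 12, 0 were called at 24 h, and 4 rose and 4 fell at 48 h. Among all 811 genes of that level 2.71% rose and 6.78% fell at 24 h, and 8.26% rose and 17.4% fell at 48 h. The median absolute change at 24 h and 48 h was 0.08 and 0.14 in these 43 members, 0.18 and 0.25 in 28 members from 10 to 12, 0.29 and 0.24 in 7 from 8 to 10, and 0.02 and 0.11 in 4 below 8, so it did not fall steadily with level. Across the 82 members, Spearman's rho between mean level and absolute change was -0.37 at 24 h and -0.32 at 48 h, as a description over genes measured on the same arrays. The members are short, with a median span of 10.2 kb in the annotation against 30.4 kb over all genes tested. Of the 4 longer than 100 kb (NDUFAF2, NDUFAF6, NDUFA10 and NDUFS4), 3 fell at 48 h, where 20.1% of all genes fell. The share among all genes of that span was not computed, and 4 genes are too few to show an effect of length. Across the 82 members rho between span and change was 0.02 and 0.00.

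Assembly factors of the respiratory complexes that bear other names were examined next. Of 12 further complex I assembly genes, 6 fell at 24 h and 6 at 48 h, with 0 rises (medians -0.44 and -0.41). The falls were 50% at each time, against 12.8% and 20.1% of all genes. The rises were 0%, against 10.3% and 17.8%. These differences in share were not tested. ACAD9 and TMEM126A, which act in membrane arm assembly, fell by 1.11 (SE 0.12) and 1.22 (SE 0.31) at 24 h and by 1.39 and 2.27 at 48 h. NUBPL, which delivers iron-sulphur clusters to complex I, fell by 0.79 and 1.43. LYRM2, DMAC1 and DMAC2, the last named after its values were seen, fell as well, by 0.41 to 0.71 at 24 h and 0.46 to 0.90 at 48 h. ECSIT, TIMMDC1, TMEM126B, FOXRED1, COA1 and TMEM186 did not pass, with changes of -0.46 to 0.13 at 24 h and -0.35 to 0.44 at 48 h. Among the partners of NDUFAF1 in its assembly complex, ACAD9 fell, while ECSIT and TMEM126B did not pass.

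Of 25 complex IV assembly genes 13 fell (52%) and 1 rose (4%) at 24 h (median -0.32). The 48 h counts were 10 falls (40%) and 2 rises (8%), with a median of -0.25. At 48 h the block gave 15 falls and 2 rises. Of all genes tested 12.8% fell and 10.3% rose at 24 h, and 20.1% and 17.8% at 48 h. The differences from these shares were not tested for any list in this paragraph. SURF1, which is mutated in Leigh syndrome with complex IV deficiency, fell by 1.29 (SE 0.14, adjusted p = 0.00022) at 24 h and by 2.21 (SE 0.14, adjusted p = 7.67e-06) at 48 h. COX11, a copper delivery factor, fell by 1.25 and 0.68, and PET117 by 0.65 and 1.01. The copper chaperone SCO2 (0.79 and 0.94), COX20 (0.92 and 0.81) and COA3 (0.88 and 1.14) fell at both times, and COA7 rose by 0.59 and 0.53. COA3 and COA7 were named after their values were seen, as were ATPAF2 and PDSS1. Among 5 complex V assembly genes ATPAF1 fell by 1.02 and 1.28 and DMAC2L by 0.88 and 1.59. ATPAF2 fell by 0.30 at 48 h, and TMEM70 and FMC1 each rose by 0.49 at 48 h. As shares of these 5 genes 40% fell at 24 h and 60% at 48 h, and 0% and 40% rose. Among 12 genes for complexes II and III, there were 2 falls and 1 rise at 24 h (4 and 1 with the block), and 4 falls and 2 rises at 48 h. The falls were 16.7% at 24 h, near the share over all genes, and 33.3% at 48 h. The rises were 8.33% and 16.7%, near that share as well. Of these 12 genes UQCC5 fell by 0.90 and 0.84, UQCC6 by 0.78 at 48 h, and UQCC1 rose by 0.73 and 0.77.

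**Figure D4:**
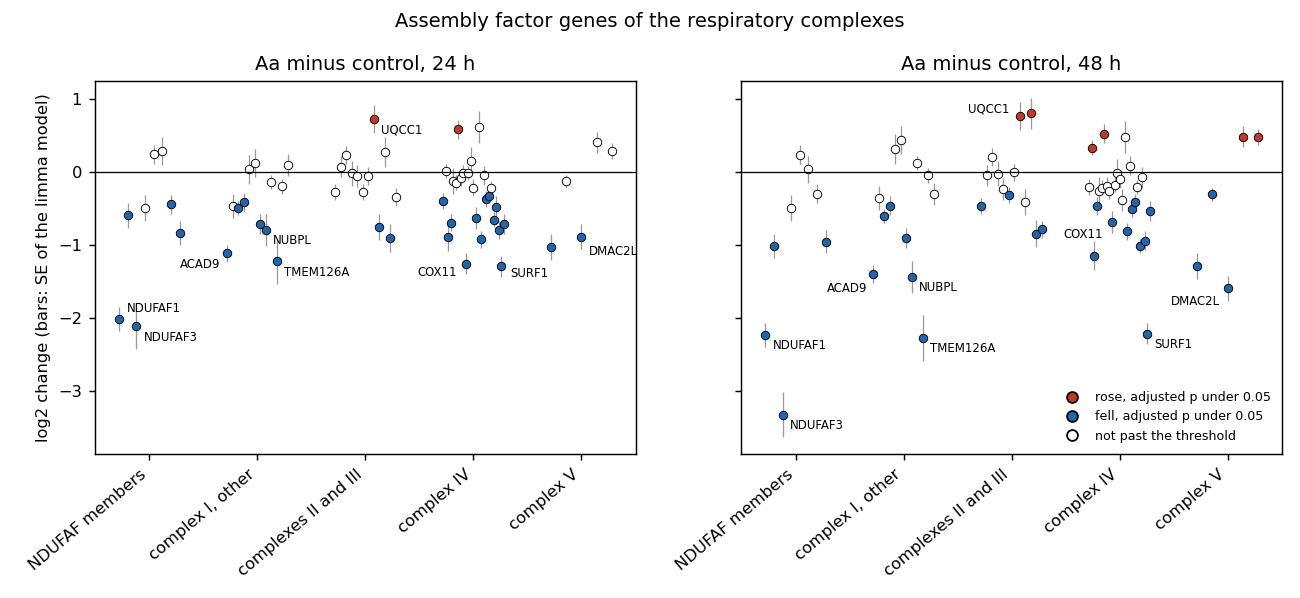
Log2 change (Aa minus control) of assembly factor genes at 24 h (left) and 48 h (right), for the 8 NDUFAF genes, 12 other complex I genes, 12 for complexes II and III, 25 for complex IV and 5 for complex V; bars are the standard error of the limma model, red rose, blue fell and open points did not pass. Blue points outnumber red ones in each of the groups, and NDUFAF3 lies lowest at 48 h. Over all genes tested falls also outnumbered rises, 1386 to 1108 at 24 h and 2164 to 1919 at 48 h.

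The mobile carriers and their supply behaved unevenly. CYCS, cytochrome c, differed by -0.06 at 24 h and 0.22 at 48 h and passed with the block only at 48 h. Of 11 genes of coenzyme Q synthesis, there were 3 falls and 0 rises at 24 h, and 2 falls and 2 rises at 48 h (at 48 h 3 falls and 4 rises with the block). As shares 27.3% fell at 24 h, against 12.8% of all genes. At 48 h 18.2% fell and 18.2% rose, near the 20.1% and 17.8% of all genes. The differences in share were not tested. COQ3, a methyltransferase of the pathway, fell by 2.29 (SE 0.22, adjusted p = 0.000124) and by 2.13 (adjusted p = 9.63e-05). PDSS2, which makes the side chain with PDSS1, fell by 2.09 at 48 h, and PDSS1 rose by 0.78 at that time.

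The mitochondrially encoded subunits measured, 7 of 13, did not pass at either time, with changes of -0.33 to 0.16 at 24 h and -0.27 to 0.23 at 48 h. Of these ND2, ND4, COX1, COX2 and ATP6 averaged 15.35 to 15.90 in every group, near the top of the scale of the table. Of 76 mitochondrial ribosomal protein genes 11 fell and 3 rose at 24 h (28 and 12 with the block). At 48 h 18 fell and 10 rose (24 and 18 with the block). As shares 14.5% and 23.7% fell, near the 12.8% and 20.1% over all genes. The rises were 3.95% and 13.2%, against 10.3% and 17.8% over all genes. MRPS14 fell by 1.11 and 1.10 and MRPL57 by 0.65 and 0.63, and MRPL49 rose by 0.51 and 0.79. Among 16 regulators of mitochondrial biogenesis, 1, POLG2, fell at 24 h, by 0.74 (4 fell with the block). At 48 h 2 fell and 1 rose (3 and 5 with the block). The falls were 6.25% and 12.5% of these regulators, below the shares over all genes. The differences in share were not tested. PPARGC1A, the coactivator that drives this programme, fell by 1.25 (adjusted p = 0.00724) at 48 h, the factor YY1 by 0.26, and the helicase gene TWNK rose by 0.72. NRF1 differed by 0.16 and 0.37, and GABPA by -0.68 and -0.12.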

How the data were processed

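RNA from 12 samples of HK-2 cells was hybridised to 1-colour Affymetrix arrays. The authors deposited log2 values made with GCRMA, per the submitters' processing notes, whose version is not given in the sources used here. Of 54675 probe sets, 41091 carried 1 gene symbol and 1801 several in the platform annotation. Each gene was represented by its brightest probe set with 1 symbol and a mean of at least 4 over the 12 arrays, giving 10791 genes. The 4 group means were fitted with limma 3.58.1 in R 4.3.3 (lmFit and eBayes, 8 residual and 2.76 prior degrees of freedom, two-sided), with Benjamini-Hochberg adjustment over all genes and a threshold of 0.05. Tables and figures were made with Python 3.11.15, pandas 2.3.3, numpy 2.4.6 and matplotlib 3.10.9. The number of arrays limits the precision.

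The members, the lists and the rule for named genes were chosen with earlier results of these data known. The rule for names took, at each time, up to 8 called members with the largest rise and up to 8 with the largest fall, and the 2 with the smallest p in each complex. It added up to 5 called in each direction in the time comparisons, the SDH genes, CYC1 and paralogues of complexes IV and V, members with probe sets called in opposite directions, those nearest the filter, and up to 3 genes per other list with the smallest p at each time. GABP letters were searched in addition to NRF1 letters, and shares with a motif are per gene. Same-numbered arrays deviated together once the values were centred on the mean of each group of 3. Over all genes 18 same-number pairs had correlations of 0.35 to 0.62, against -0.49 to -0.01 for 36 other pairs. The centring makes higher values in the first kind of pair go with lower values in the other, so the 2 ranges are not independent. By these correlations 12 of 12 arrays were closest to their own number. The pairing was read from the data, and the fit with the replicate number as a block is an alternative. The other alternatives were other filters, scalings, variance models and probe set choices, and leaving out each replicate number. The fitting code was tested on simulated data.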

Additional observations from a re-analysis of the deposited data

Results flagged for a closer look

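Probe sets that the annotation assigns to several genes were kept out of the report. Of 15 such probe sets with a gene of the pathway among their names, 13 passed the filter, and in a fit over 22515 probe sets 3 were called at 24 h and 3 at 48 h. One of them rose at both times, with a log2 change of 0.78 after 24 h and 0.65 after 48 h, and another rose by 0.89 after 48 h. The other calls were falls, by 0.41 and 0.32 in a pair of probe sets after 24 h and by 0.35 in 1 after 48 h. The called probe sets are listed because a signal appears in data that the comparisons did not use. The annotation does not tie any of them to 1 gene.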

How the results depend on the processing

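With the replicate number as a block, the calls were 20 at 24 h and 35 at 48 h, 3 for the change of the Aa effect, 4 in control cells and 12 in Aa cells over time, and 40 and 55 single probe sets. The block raised the calls over all genes as well, to the counts given above. Leaving out 1 replicate number gave 2 to 7 calls at 24 h, 7 to 15 at 48 h, 0 to 1 in Aa cells over time, 8 to 18 probe sets at 24 h and 7 to 21 at 48 h, with a median change of -0.06 to -0.04 at 48 h. The change of the Aa effect had 2 calls with no filter, 1 with a mean of at least 6 and 1 with a variance trend and robust fit. The median change was -0.03 at 48 h with no filter, -0.06 at 24 h and -0.03 at 48 h with the mean of a gene's probe sets, and -0.06 at 24 h without probe sets named for shared sequence. The last setting gave 13 calls at 48 h (7 falls and 6 rises), 2 in Aa cells over time and 16 probe sets at 48 h, and each probe set on its own gave 2 in Aa cells over time. Among members called in at least 1 of the settings compared, signs turned for NDUFS1 (0.24 at 24 h and 0.05 at 48 h) and ATP5MC3 (0.37 at 24 h) with the mean of probe sets, and for NDUFA6 (0.63 at 24 h), UQCR11 (0.54 at 24 h) and SDHC (0.06 at 48 h) without shared-sequence names. The mean for NDUFS1 includes a probe set that passed the filter only through the Aa arrays. Signs also turned where neither value was called, among them SDHC (0.42 at 24 h) and COX4I1 (-0.18 at 24 h) without shared-sequence names, and ATP5F1E (0.16 at 24 h), NDUFA6 (0.30 at 24 h), UQCR11 (0.18 at 24 h) and ATP5MC3 (0.22 at 48 h) with the mean of probe sets. Of 1404 values of 37 named members in 3 comparisons, 1273 stayed on their side of the threshold with no turn of sign, 73 lost and 20 gained the call, 6 turned with a call and 32 without one. The cause was not tested.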

Other observations

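Genes of neighbouring pathways are set here against all genes tested, of which 12.8% fell at 24 h and 20.1% at 48 h. Of 20 genes of the citric acid cycle and its control, there were 4 falls and 1 rise at 24 h, and 5 falls and 2 rises at 48 h, so that 20% and 25% fell. IDH3G, a subunit of NAD-dependent isocitrate dehydrogenase, fell by 0.84 and 1.13, SUCLG2, a subunit of succinyl-CoA ligase, by 0.59 and 0.76, and PDK1, a kinase that inhibits pyruvate dehydrogenase, by 0.52 and 1.04. Of 20 mitochondrial import genes there were 7 falls and 0 rises at 24 h, and 7 falls and 3 rises at 48 h, so that 35% fell at each time. IMMP2L, a peptidase of the inner membrane, fell by 2.12 (SE 0.46) at 24 h and fell by 4.13 (SE 0.46) at 48 h, and TIMM10B by 1.08 and 0.71, while TIMM17A, a channel subunit, rose by 0.60 at 48 h. Of 17 glycolysis genes 1 fell at 24 h (5.88%) and 4 at 48 h (23.5%), with 0 rises. These differences in share were not tested. PFKM fell by 0.67 and 0.70, and at 48 h HK2 fell by 0.65, GPI by 0.62 and PGK1 by 0.35. GPI was named after its values were seen.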
